A study of Mus musculus with 4 samples.

Results

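The 8 genes described belong to WNT signalling and were measured in mouse embryoid bodies, which are aggregates of differentiating embryonic stem cells: the ligand genes Wnt5a, Wnt3 and Wnt6, the feedback inhibitors Dkk1, Notum and Axin2, and the nuclear genes Sp5 and Lef1. They were taken by name, and all 8 were found among the 20284 genes of the expression table. At day 9, transcripts of single cells were counted by the 10x Genomics droplet method in 2 DUX-pulsed libraries, made from embryonic stem cells given a pulse of DUX expression, and in 2 control libraries, made from control embryonic stem cells. DUX is a double-homeobox transcription factor active in the early embryo. Each pair of libraries is given as biological replicates, and the stem cell line and the length of the pulse are not given in the sources used here.

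WNT ligands are secreted lipid-modified proteins that bind Frizzled receptors. In the canonical branch they stabilise beta-catenin, which acts with TCF and LEF factors at target genes, and several of those targets in turn damp the signal. Canonical WNT signalling is needed for primitive streak formation in the mouse embryo, and cardiac development passes through periods in which it is first needed and later restrained. Wnt3 is a canonical ligand required for the streak, Wnt5a acts mostly through beta-catenin-independent routes, and Wnt6 is expressed in epithelia such as surface ectoderm. Dkk1 binds the co-receptors Lrp5 and Lrp6, Notum removes the lipid from WNT proteins, Axin2 is a scaffold of the complex that degrades beta-catenin, Sp5 is a zinc finger repressor, and Lef1 binds DNA as a partner of beta-catenin.

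TCF and LEF factors recognise a short core, searched here as CTTTGA and CTTTGT on both strands, letters that cannot overlap each other on 1 strand. RefSeq promoters (GRCm38.p6, 300 bases from upstream of the start into the transcript) were matched by symbol for 6 of the 8 genes. Wnt5a and Notum had no entry. Of 32851 promoters, 31.2% held at least 1 core, 1.14% at least 3 and 0.0365% at least 5. The promoters of Sp5 (5 cores, chr2:70474673-70474972, plus strand), Dkk1 (3 cores, chr19:30549447-30549746, minus strand) and Wnt3 (1 core, chr11:103773925-103774224, plus strand) are shown because these genes had the 3 largest falls among the members in DUX-pulsed libraries. They are written 5′ to 3′ on the gene's strand, and capitals mark the core on either strand.
Sp5: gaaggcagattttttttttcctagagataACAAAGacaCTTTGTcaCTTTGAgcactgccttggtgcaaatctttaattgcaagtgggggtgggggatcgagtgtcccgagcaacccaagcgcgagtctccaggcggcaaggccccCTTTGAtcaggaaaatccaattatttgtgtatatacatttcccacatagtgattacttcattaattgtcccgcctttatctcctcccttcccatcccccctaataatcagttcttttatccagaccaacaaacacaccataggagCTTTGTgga
Dkk1: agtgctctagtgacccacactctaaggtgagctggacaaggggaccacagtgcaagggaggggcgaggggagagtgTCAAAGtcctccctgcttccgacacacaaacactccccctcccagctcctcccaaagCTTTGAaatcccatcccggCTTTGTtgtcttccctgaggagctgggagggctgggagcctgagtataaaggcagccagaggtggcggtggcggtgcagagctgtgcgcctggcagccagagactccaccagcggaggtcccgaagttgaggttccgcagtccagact
Wnt3: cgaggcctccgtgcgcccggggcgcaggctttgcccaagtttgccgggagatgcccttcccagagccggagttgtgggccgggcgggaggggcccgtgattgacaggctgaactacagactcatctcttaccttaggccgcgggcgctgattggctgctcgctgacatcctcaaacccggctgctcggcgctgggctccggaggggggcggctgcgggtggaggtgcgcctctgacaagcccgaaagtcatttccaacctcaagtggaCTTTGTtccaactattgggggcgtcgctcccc
The promoters of Wnt6 and Axin2 held no core. Of 4 Lef1 starts, the one farthest downstream had 3 cores and the others none. A match describes the letters in this window only.

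Kept cells numbered 2063 and 1353 in the DUX-pulsed libraries and 2824 and 2636 in the controls, with 36462169 to 96344329 UMIs per library and median depths of 27260 to 30402.5 UMIs per cell (unique molecular identifiers, each counting 1 captured RNA molecule). The libraries shared at most 2 cell barcodes with each other. Median mitochondrial shares were 4.01% and 4.54% in DUX-pulsed cells, against 6.22% and 6.42% in control cells. Clustering without the WNT genes gave 26 clusters, of which 13 took a name from fixed marker lists and formed 9 classes. The others keep their number. Many clusters held cells almost wholly of 1 group. In all, 7 classes or clusters had at least 20 cells in every library, and they held 61.6% and 75.5% of DUX-pulsed cells but 28.8% and 27.2% of control cells.

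Summed over all cells, Wnt3, Sp5, Dkk1 and Wnt5a were lower and Wnt6 and Lef1 higher in DUX-pulsed embryoid bodies. Levels are given as CPM, the UMIs of a gene scaled to 1000000 UMIs of the cells summed, and the folds come from edgeR's quasi-likelihood test. Of the 8 genes, 6 passed an adjusted p of 0.05, 4 lower and 2 higher, where 26.7% of the 16140 genes tested did so (15.6% higher and 11.1% lower). All 8 had groups that did not overlap, as did 67.5% of all genes tested. In whole cultures, fewer cells that express a gene and less RNA per cell cannot be told apart.

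Among the ligands, Wnt3 (chromosome 11, 103774150 to 103817957, mm10; ENSMUSG00000000125.5) stood at 0.599 and 0.357 CPM in the DUX-pulsed libraries, against 7.37 and 4.04 CPM in the controls. Both DUX-pulsed libraries were far below both controls. The log2 fold change was -3.48 (SE 0.46, adjusted p = 0.00499, edgeR's quasi-likelihood test with Benjamini-Hochberg adjustment). Wnt5a (chromosome 14, 28504750 to 28527448; ENSMUSG00000021994.15) stood at 21.7 and 28.9 CPM in DUX-pulsed libraries, against 50.4 and 73.5 CPM in controls. Each control was above each DUX-pulsed library, with a wider spread among controls. It fell by 1.23 on the log2 scale (SE 0.22, edgeR adjusted p = 0.011). Wnt6 (chromosome 1, 74771892 to 74785322; ENSMUSG00000033227.7) went the other way, at 4.196 and 5.76 CPM in DUX-pulsed libraries, against 2.003 and 1.19 CPM in controls. Its log2 fold change was 1.68 (SE 0.35, edgeR adjusted p = 0.0189). The Wnt6 call was lost under a stricter cell filter of 1000 genes and 5% mitochondrial counts (adjusted p = 0.0812), at 5000 UMIs per cell (0.0545) and without control replicate 2 (0.0664).

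Of the secreted inhibitors, Dkk1 (chromosome 19, 30545863 to 30549665; ENSMUSG00000024868.8) stood at 25.4 and 33.1 CPM in DUX-pulsed libraries, against 78.4 and 80.5 CPM in controls. The controls lay close together and well above both DUX-pulsed libraries. It fell by 1.39 on the log2 scale (SE 0.17, edgeR adjusted p = 0.00402). Notum (chromosome 11, 120653788 to 120661175; ENSMUSG00000042988.10) was sparse, with 51 and 20 UMIs in DUX-pulsed libraries, against 33 and 28 UMIs in controls. That came to 0.784 and 0.549 CPM, against 0.343 and 0.358 CPM, and the difference did not pass (log2 1.0, SE 0.38, edgeR adjusted p = 0.101).

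Of the intracellular feedback and nuclear genes, Sp5 (chromosome 2, 70474923 to 70477729; ENSMUSG00000075304.2) stood at 8.22 and 11 CPM in DUX-pulsed libraries, against 40.5 and 29.7 CPM in controls, with no overlap. It fell by 1.82 on the log2 scale (SE 0.24, edgeR adjusted p = 0.00492). Axin2 (chromosome 11, 108920349 to 108950783; ENSMUSG00000000142.15) stood at 2.95 and 4.74 CPM in DUX-pulsed libraries, against 7.35 and 7.37 CPM in controls. Its log2 fold change of -0.89 (SE 0.27) missed the threshold with edgeR (adjusted p = 0.0545) and passed with DESeq2 (adjusted p = 0.0216). Lef1 (chromosome 3, 131110471 to 131224356; ENSMUSG00000027985.14) stood at 7.67 and 10.01 CPM in DUX-pulsed libraries, against 3.14 and 2.48 CPM in controls, so both DUX-pulsed libraries were higher. It rose by 1.70 on the log2 scale (SE 0.25, edgeR adjusted p = 0.0069), a call lost under the stricter cell filter (log2 0.91, adjusted p = 0.0653).

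**Figure D1:**
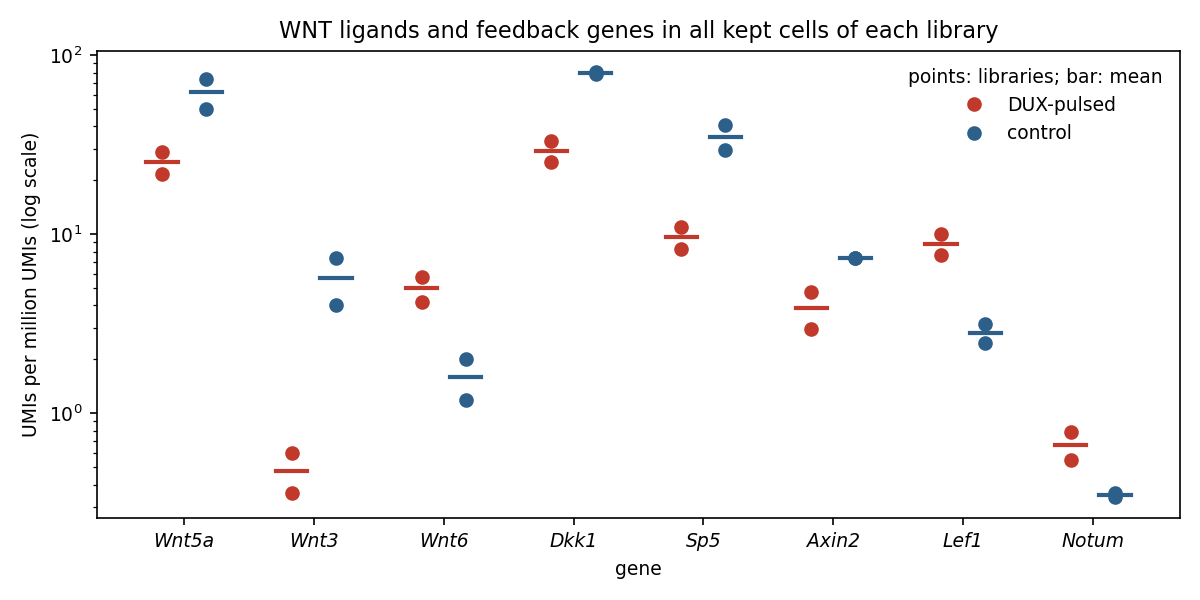
Level in CPM (log axis) of the 8 genes in all kept cells of each library, with DUX-pulsed left of control; points are libraries and bars are means of 2. Wnt3 shows the widest gap, with DUX-pulsed libraries at 0.599 and 0.357 and controls at 7.37 and 4.04.

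In control embryoid bodies, Wnt3, Sp5 and Dkk1 were highest by CPM in cluster 24, led by Trh, Lhx1, Eomes, Fgf5, Mixl1 and Gsc. Eomes, Mixl1 and Gsc are known as transcription factors of the primitive streak. Cluster 24 was nevertheless left unnamed. Of the 11 markers of the primitive streak and nascent mesoderm list, 5 were raised in it, too few for that name. DUX-pulsed replicates 1 and 2 had 1 and 7 cells of cluster 24, against 111 and 56 in the controls, so no comparison was made within it. In its control cells Sp5 reached 267 and 213 CPM, Dkk1 340.4 and 213 CPM, and Wnt3 38.3 and 35.7 CPM. Axin2 stood at 24.97 and 16.96 CPM there, a range that overlaps its 19.5 and 18.5 CPM in cluster 17 of the controls. By the thinned share of cells with a UMI, Dkk1 was instead highest in cluster 18. Lef1 was low in cluster 24, at 1.2 and 1.8 CPM. High levels of both ligand and feedback genes also lay in clusters 18 and 25, both led by Adora2b and Spink1. Wnt3 reached 15.2 and 10.03 CPM in cluster 18 and 10.3 and 8.4 CPM in cluster 25, ranges that overlap, and its cluster 17 values of 16.4 and 2.52 CPM spanned them.

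The cells that supplied a gene's UMIs differed between the groups. Of 52 DUX-pulsed Wnt3 UMIs, 46.2% came from cluster 17, at 23 of 39 in replicate 1, of which 11 lay in a single cell, and 1 of 13 in replicate 2. Of 1026 control Wnt3 UMIs, 34.1% came from cluster 18, 31.5% from cluster 24 and 13.6% from cluster 25. Of 936 DUX-pulsed Sp5 UMIs, 46.9% came from cluster 6 and 41.3% from cluster 5, which share the leading genes Ghrl and Nepn. Of 6223 control Sp5 UMIs, 34.6% came from cluster 24 and 31.4% from cluster 18. Dkk1 followed the same clusters, with 32.8% of 2862 DUX-pulsed UMIs in cluster 5 and 22.4% in cluster 6, against 28.1% of 13846 control UMIs in cluster 18 and 18.6% in cluster 24. The cluster 24 share of Dkk1 was 26.4% in control replicate 1 and 9.4% in control replicate 2.

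Wnt5a in controls was spread over cluster 23 (25% of 10600 UMIs) and cluster 21 (24.9%), both led by Ly6h and Rarres1. Its highest control levels, 104 and 127 CPM in cluster 21, 105 and 125 CPM in cluster 8 (led by Tff3 and Anpep) and 114 and 139 CPM in cardiomyocyte-like cells, overlap. The largest share of Lef1 UMIs came from cardiomyocyte-like cells in DUX-pulsed libraries (48.7% of 864), and from cluster 17 in controls (34.6% of 497). Endothelium-like cells also held Lef1, at 18.5 and 70.8 CPM in DUX-pulsed libraries, against 17.3 CPM in control replicate 1, the one control with enough of these cells. The endothelium-like values of DUX-pulsed libraries span the cardiomyocyte-like ones, and in controls cluster 17 was higher, at 35.3 and 41.2 CPM. Notum was highest in trophoblast-like cells of DUX-pulsed replicate 1, at 9.75 CPM from 20 UMIs, while the 16 such cells of DUX-pulsed replicate 2 held none, which allows up to 5.47 CPM. Of trophoblast-like cells, 23.6% were among the top doublet scores, and Notum was still highest in this class with those cells removed. By the thinned share of cells with a UMI, Notum was instead highest in cluster 17.

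**Figure D2:**
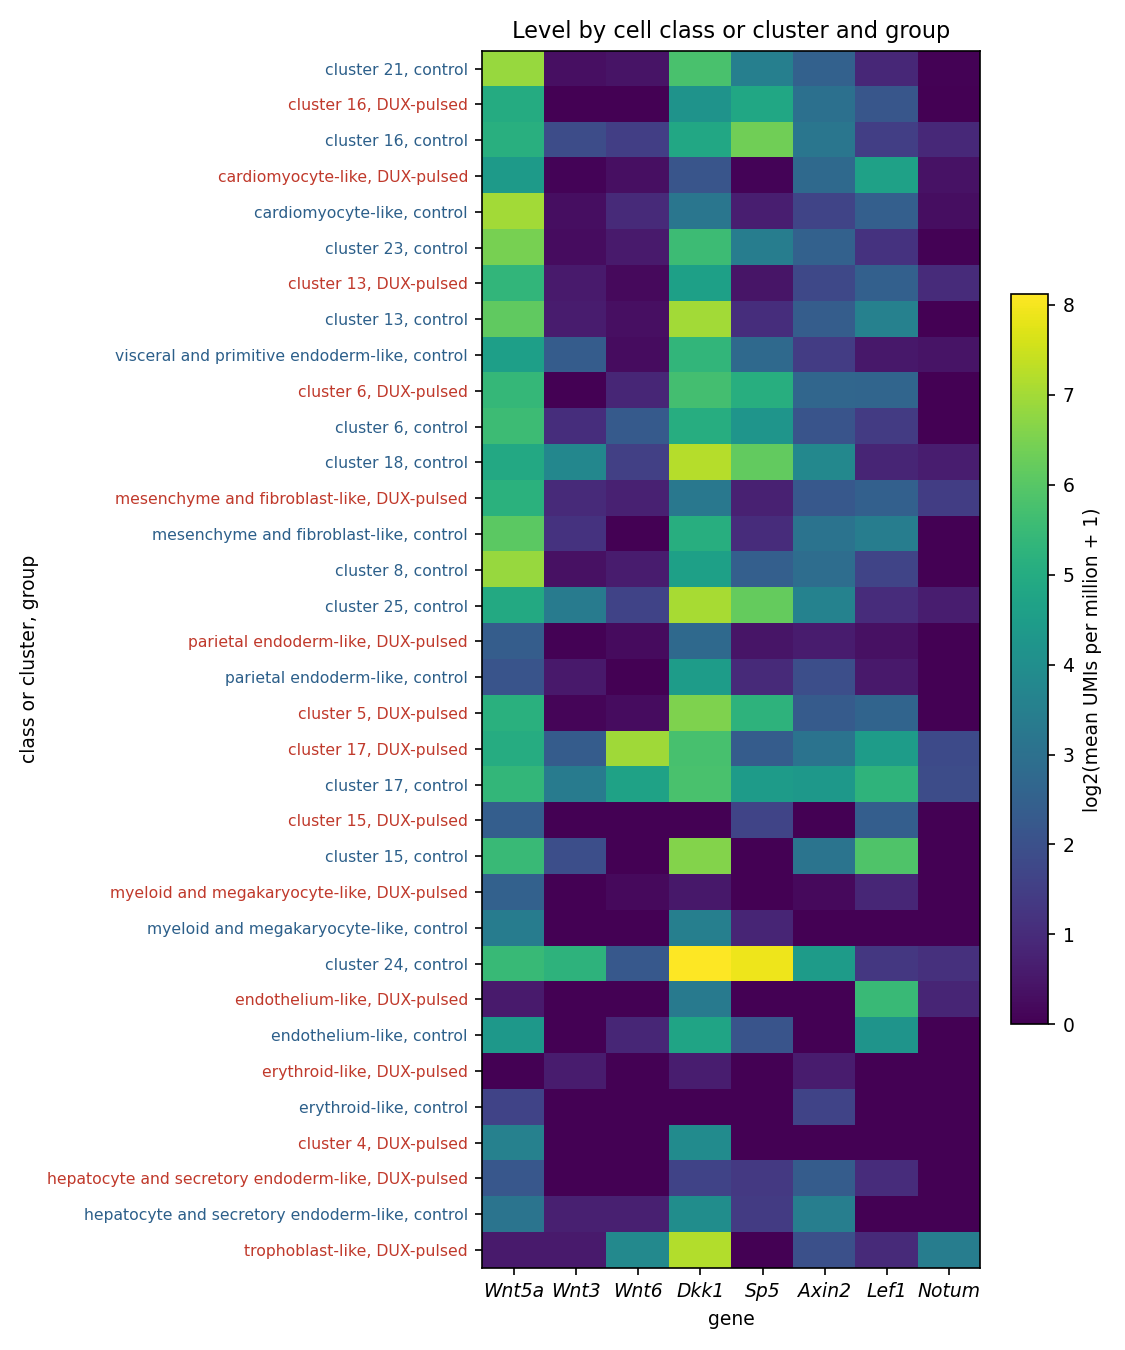
Mean level of each gene, as log2(CPM + 1), in every class or cluster and group with at least 20 cells in a library; rows run from the largest class to the smallest, with DUX-pulsed above control. Cluster 24 of the controls is brightest for Dkk1 and Sp5, and cluster 17 of the DUX-pulsed libraries for Wnt6.

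**Figure D3:**
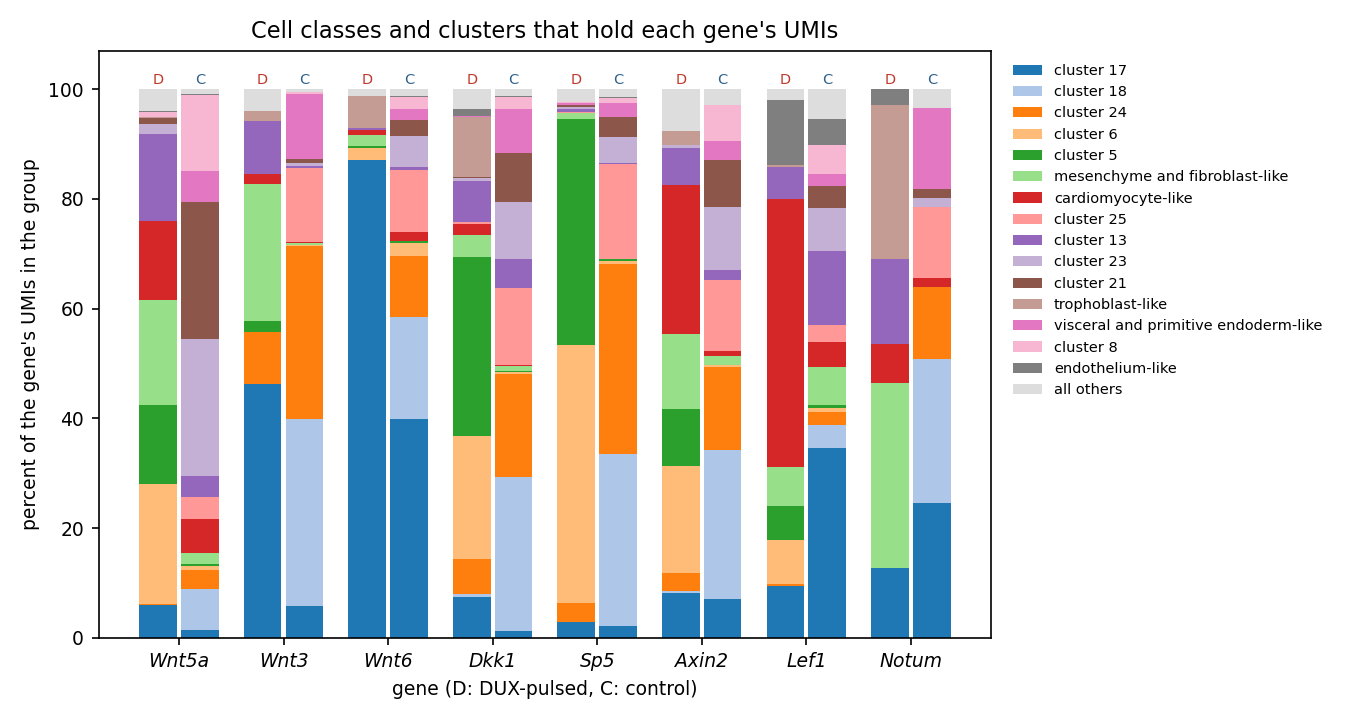
Percent of each gene's UMIs that came from each class or cluster, with DUX-pulsed (D) left of control (C). Wnt6 in DUX-pulsed libraries came almost wholly from cluster 17 (87.0%), against 39.9% in controls.

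Wnt6 was largely a gene of cluster 17, led by Sox2, Dppa5a, Foxe1 and Shh. Its level there was 70.7 and 176 CPM in DUX-pulsed libraries (95 and 33 cells), against 24.1 and 25.2 CPM in controls (74 and 27 cells). The log2 fold change was 2.22 (SE 0.40, edgeR adjusted p = 0.0328), where 4.01% of 10187 genes passed. A single cell held 33.2% of the UMIs of DUX-pulsed replicate 1, and without it the level there was 48.7 CPM. The cluster mixed cell kinds: Dppa5a, a pluripotency gene, stood at 14.5 and 0.879 CPM in DUX-pulsed cells, against 717 and 197 CPM in control cells, so a finer cluster within it was fitted as well. That finer cluster had 91 and 33 DUX-pulsed cells, against 39 and 24 control cells, with Dppa5a at 0.343 and 0.879 CPM, against 13.6 and 4.97 CPM. Some other leading genes of the cluster were still apart there. Foxe1 stood at 49.8 and 60.7 CPM in DUX-pulsed cells, against 146 and 193 CPM in control cells. Tlx1 stood at 15.1 and 17.6 CPM, against 74.3 and 131 CPM, and Nkx2-3 at 28.8 and 22.9 CPM, against 112 and 220 CPM. Sox2 overlapped, at 137 and 115 CPM in DUX-pulsed cells, against 112 and 140 CPM in control cells. Shh overlapped too, at 100 and 51.0 CPM, against 51.4 and 283 CPM. The part of these genes in the Wnt6 difference was not tested. Wnt6 in the finer cluster stood at 75.6 and 176 CPM in DUX-pulsed cells, against 49.6 and 29.8 CPM in control cells (log2 1.58, SE 0.37, edgeR adjusted p = 0.0313). All 220 Wnt6 UMIs of DUX-pulsed replicate 1 lay in it, so the single cell with 33.2% of them did too. The finer cluster was not fitted without that cell. The call in the whole cluster was lost without DUX-pulsed replicate 2 (adjusted p = 0.0608), without control replicate 1 (0.12), without the top doublet scores (0.068) and at 5000 UMIs per cell (0.172).

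Within cardiomyocyte-like cells, Wnt5a was lower and Lef1 higher in DUX-pulsed cultures. Cells of this class, named from heart muscle markers, numbered 388 and 257 in DUX-pulsed libraries, against 117 and 84 in controls. Wnt5a stood at 18.9 and 22.5 CPM in DUX-pulsed cells, against 114 and 139 CPM in control cells. The log2 fold change was -2.51 (SE 0.21, edgeR adjusted p = 1.91e-07), where 16.2% of 11260 genes passed in this class. Lef1 stood at 24.7 and 23.7 CPM in DUX-pulsed cells, against 4.12 and 4.94 CPM in control cells. Its log2 fold change was 2.52 (SE 0.31, edgeR adjusted p = 1.75e-05).

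Different clusters held most of the class in the 2 groups. DUX-pulsed cells lay mainly in clusters 1 and 2, led by Ryr2, Tnni3, Myl2 and Ttn, and control cells in cluster 20, led by Tdgf1, Ankrd1 and Cnn1, with 83 and 71 cells. In cluster 2 alone, with 116 and 65 DUX-pulsed cells against 19 and 10 control cells, Wnt5a stood at 14.4 and 22.7 CPM in DUX-pulsed cells, against 156 and 231 CPM in control cells (log2 -3.32, edgeR adjusted p = 2.08e-08). Lef1 there stood at 35.8 and 40.1 CPM in DUX-pulsed cells, against 5.21 and 7.61 CPM in control cells (log2 2.65, edgeR adjusted p = 0.000531). Those control Lef1 values rest on 3 and 3 UMIs. Both differences were as large within cluster 2 as in the class. In cluster 1, with 265 and 188 DUX-pulsed cells, Wnt5a stood at 19.98 and 20.22 CPM in those cells. Control replicate 1 stood at 47.05 CPM there, from 13 UMIs in 15 cells, a smaller gap than in cluster 2. Lef1 in cluster 1 stood at 19.14 and 16.22 CPM in DUX-pulsed cells, against 3.62 CPM from 1 UMI in control replicate 1. Control replicate 2 had 3 cells of cluster 1, and the differences there were not tested.

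After each of the 382, 254, 109 and 84 cells deep enough was thinned to 5000 UMIs, 8.64% and 13.8% of DUX-pulsed cardiomyocyte-like cells had a Wnt5a UMI, against 33.9% and 36.9% of control cells. Before thinning the Wnt5a shares were 32.7% and 37.0%, against 70.1% and 64.3%. For Lef1 they were 9.69% and 9.84% after thinning, against 2.75% and 2.38%, and before thinning 32% and 33.5%, against 7.69% and 11.9%. Erythroid-like cells, taken as cells that should lack both genes, had no thinned cell with either gene among 46 and 33 cells of the DUX-pulsed libraries, which allows up to 6.52% and 9.09%, nor among 22 cells of control replicate 2, which allows up to 13.6%. These limits cover counting error only. They lie close to or above the Lef1 shares of cardiomyocyte-like cells, so they say little about Lef1. Before thinning, control erythroid-like cells held 3 Wnt5a UMIs. Median depths were 12234.5 to 20256 UMIs in these erythroid-like cells and 22810.5 to 28343 UMIs in the cardiomyocyte-like cells.

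Axin2 also passed in cardiomyocyte-like cells, higher in DUX-pulsed cells, while its whole-culture value was lower and not called. It stood at 4.3 and 7.5 CPM in DUX-pulsed cells, against 2.06 and 2.25 CPM in control cells (log2 1.52, SE 0.48, edgeR adjusted p = 0.0351). The control values rest on 6 and 5 UMIs, and the call was lost with DESeq2 (adjusted p = 0.188), without control replicate 1 (0.12) or 2 (0.112), in cluster 2 alone (0.365) and in 2 further settings.

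Dkk1 was lower in both cluster 13 and the mesenchyme and fibroblast-like cells. In cluster 13, led by Lrrn3, Lhx2, Rgs5 and Pdgfrb, it stood at 16.1 and 30.6 CPM in DUX-pulsed cells, against 89.2 and 165 CPM in control cells (log2 -2.30, SE 0.35, edgeR adjusted p = 0.0117, where 5.46% of 11002 genes passed). Without DUX-pulsed replicate 1 the call was lost (adjusted p = 0.0639). It was also lost in a finer cluster with 94.8% of its cells in cluster 13 (log2 -4.55, edgeR adjusted p = 0.0609). Control replicates 1 and 2 stood at 44.6 and 525 CPM there. In another finer cluster, with 100% of its cells in cluster 13, Dkk1 passed (log2 -1.44, edgeR adjusted p = 0.0088). Without the top cell of each library, Dkk1 in cluster 13 stood at 15 and 22.8 CPM in DUX-pulsed cells, against 78.7 and 125 CPM in control cells. In mesenchyme and fibroblast-like cells it stood at 10.2 and 6.75 CPM in DUX-pulsed cells, against 26.2 and 40.3 CPM in control cells (log2 -1.77, SE 0.33, edgeR adjusted p = 0.0166, where 4.19% of 11033 genes passed). A single cell supplied 62.2% of the UMIs of control replicate 2. With the top cell of each library left out, the levels were 7.98 and 3.77 CPM in DUX-pulsed cells, against 20.8 and 15.5 CPM in control cells, so the groups still did not overlap. In cluster 0 alone, the larger of the 2 clusters of this class, the call was lost (log2 -1.42, adjusted p = 0.0841), and in the other, cluster 11, it passed (log2 -2.37, adjusted p = 0.0307).

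Sp5 in cluster 6 was higher in DUX-pulsed cells, also against the direction of the whole culture. It stood at 31.9 and 34.7 CPM in DUX-pulsed cells, against 11.9 and 23.8 CPM in control cells (log2 0.99, SE 0.30, edgeR adjusted p = 0.0366, where 13.5% of 10748 genes passed). The control values rest on 11 and 21 UMIs from 27 and 29 cells, and the call was lost with DESeq2 (adjusted p = 0.176), without control replicate 1 (0.264), without DUX-pulsed replicate 2 (0.0739) and in 4 further settings. Notum had 16 and 8 UMIs in DUX-pulsed mesenchyme and fibroblast-like cells, against none in control cells, where a count of 0 allows up to 1.23 and 2.68 CPM. It was under the count minimum and was not tested. In the low-depth cluster 15 no member had enough counts to be tested, and 0% of genes passed. In low-depth cluster 16, where 0.424% of genes passed, Wnt5a and Sp5 were tested and neither passed.

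**Figure D4:**
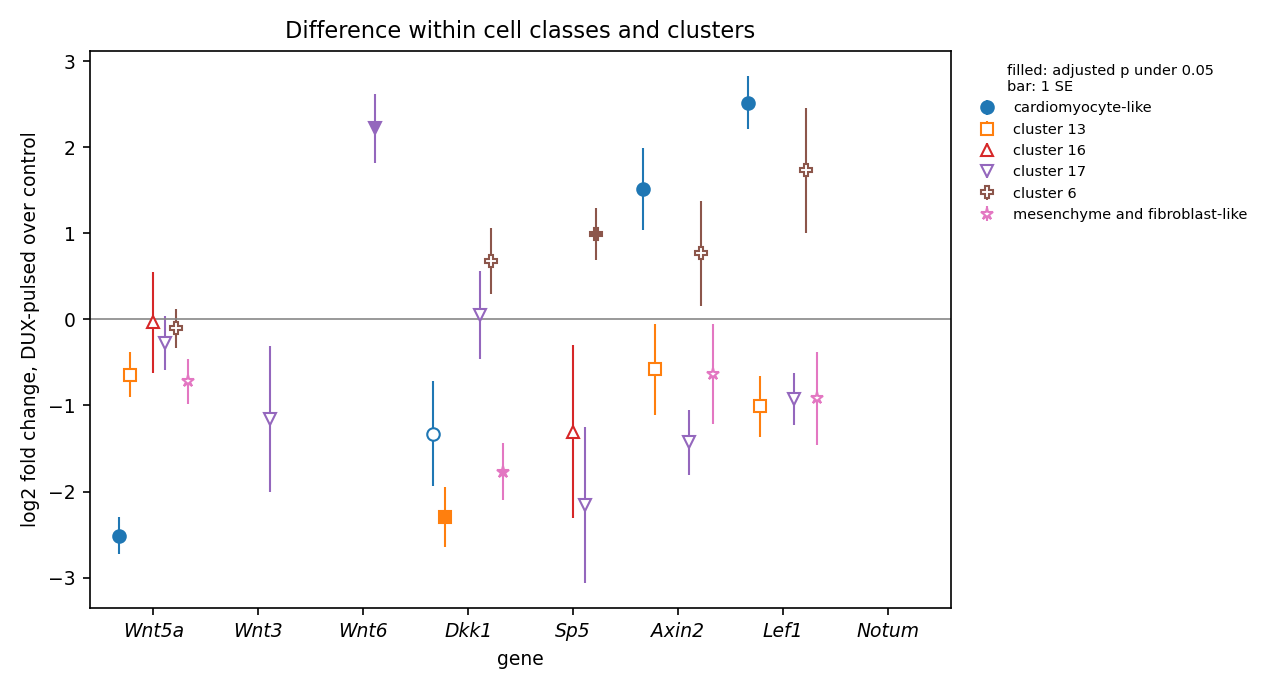
Log2 fold change of each gene, DUX-pulsed over control, within the classes and clusters compared, with 1 SE; filled symbols passed an adjusted p of 0.05 and genes under the count minimum have no symbol. Wnt5a (-2.51) and Lef1 (2.52) in cardiomyocyte-like cells lie farthest from 0 with short bars.

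Whether the DUX-pulsed difference itself varied between the 7 classes was tested in 1 model over class-by-library sums. It varied for Lef1 (edgeR F test, adjusted p = 2.85e-05), Wnt5a (5.18e-05), Dkk1 (0.0159), Axin2 (0.0411) and Wnt6 (0.0415), which is 5 of 8 genes, where 10.4% of 13349 genes passed. Wnt6 had at most 7 UMIs per library and was under the count minimum in the classes other than cluster 17, so its value says little about how they compare. Sp5 (adjusted p = 0.0831), Notum (0.33) and Wnt3 (0.621) did not pass. The calls of Dkk1, Axin2 and Wnt6 were each lost when single libraries were left out, those of Dkk1 without DUX-pulsed replicate 1 (adjusted p = 0.152) or 2 (0.258), Axin2 without DUX-pulsed replicate 1 (0.278) or 2 (0.386) or control replicate 2 (0.0624), and Wnt6 without DUX-pulsed replicate 2 (0.285) or control replicate 1 (0.0945) or 2 (0.328). For Lef1 the class values ran from 2.52 in cardiomyocyte-like cells to -1.01 in cluster 13 on the log2 scale, and for Wnt5a from -2.51 to -0.04 in low-depth cluster 16.

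Levels were also computed with the 7 classes at the same shares in every library, a description with no test. Wnt5a then gave a log2 ratio of -1.19, against -1.29 for the plain sums, and Dkk1 -1.28, against -1.44. Over 9 alternatives the ratio at fixed shares ran from -1.63 to -0.54 for Wnt5a and from -2.75 to -0.57 for Dkk1. Lef1 gave -0.13, against 1.65 for the plain sums, with 9.66 and 10.3 CPM in DUX-pulsed libraries and 8.72 and 13.1 CPM in controls, which overlap. The value of control replicate 2 includes low-depth cluster 15, where a single cell held all 18 Lef1 UMIs. That cell also held all 38 Dkk1 UMIs of cluster 15 in this library. Sp5 gave -0.88 against -1.87, and its groups overlapped too, at 10.5 and 10.8 CPM in DUX-pulsed libraries and 29.2 and 9.83 CPM in controls. With low-depth clusters 15 and 16 left out, a choice made after seeing the data, both changed sign, Lef1 to 0.46, with 12.6 and 11.8 CPM in DUX-pulsed libraries and 8.6 and 9.13 CPM in controls, and Sp5 to 0.31. Sp5 also gave 0.11 without control replicate 1, and Lef1 0.2 without control replicate 2. Wnt3 gave -1.90 against -3.58, and 0.67 under the stricter cell filter. These classes held 13.1% to 16.6% of control Wnt5a UMIs and 2.1% to 5.6% of control Sp5 UMIs. In control replicates 1 and 2 they held 7.4% and 9.9% of Dkk1 UMIs, and 8.7% and 3.3% of Wnt3 UMIs. Most control UMIs of each of these genes thus lay outside them.

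Of the wider WNT list of 98 genes, 97 were in the table and 87 were tested, of which 21 were higher and 17 lower in DUX-pulsed libraries. That is 43.7%, or 40.5% of the 79 tested genes that are not members, against 26.7% of all genes tested, and the median log2 fold change was -0.0864, against -0.00207 over all genes. Ligands moved both ways, with 7 higher and 3 lower of 13: Wnt2 (log2 1.82, edgeR adjusted p = 0.00264) and Wnt11 (1.70, 0.00264), which has a known part in heart development, were higher. Porcn, the acyltransferase that lipidates WNT proteins, fell by 1.22 on the log2 scale, while Wls, the carrier that brings them to the cell surface, was at -0.36 and not called.

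Among 16 receptors and co-receptors 2 were higher, Fzd2 (log2 1.04) and Fzd1 (1.33), and 14 were not called. Of 16 secreted inhibitors 5 were higher and 6 lower, with Sfrp2, a soluble Frizzled-related protein, at 2.73 and Dkk1 at -1.39. In the R-spondin system Rspo2 was higher (2.42) and Lgr4 was at -0.47 and not called. Among transducers Dvl2 fell by 0.80 and Axin1 by 0.68 on the log2 scale, with 2 of 14 genes higher and 2 lower. Of 11 nuclear factors 2 were higher and 1, Tle1, was lower (-0.52), a call lost in 7 of 14 alternatives, among them leaving out any 1 library. Of 18 feedback and target genes 3 were higher and 5 lower, among them Ccnd1, a cyclin, at 1.95 and Cdx2, a caudal homeobox gene, at -1.47. Some genes stand under more than 1 role. T, the gene of the streak factor brachyury, and Cdx4, another caudal homeobox gene, had no UMI in either DUX-pulsed library and were named after their values were seen. Against a floor of 3 counts over the group they were at least 22.2-fold and 9.58-fold lower, or at least 4.76-fold each against control replicate 2 alone, and Cdx4 passed the edgeR test while T did not (adjusted p = 0.0543).

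**Figure D5:**
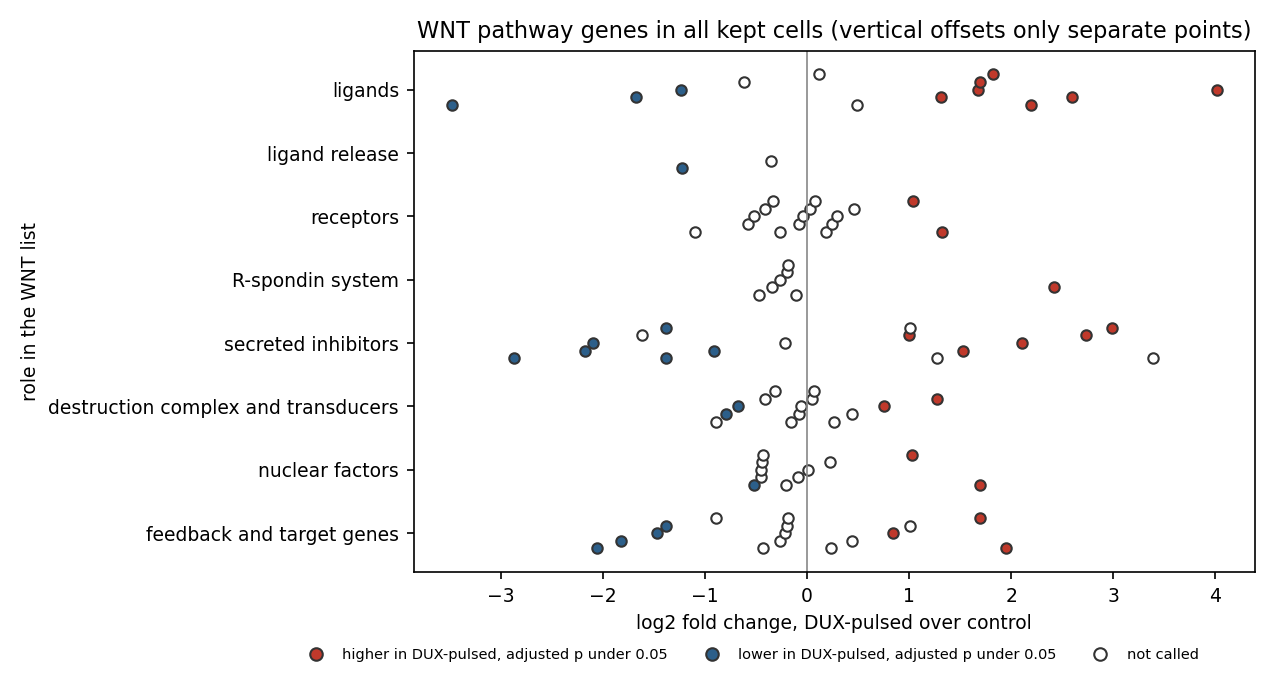
Log2 fold change of WNT list genes in all kept cells, DUX-pulsed over control, by role; the 2 genes with no UMI in DUX-pulsed libraries are left out. Ligands and secreted inhibitors spread to both sides of 0, while most receptors lie near it.

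Across 62 class-by-library sums with at least 20 cells, which share libraries and differ in depth, Sp5 was most like Irs4 (Pearson r of log2(CPM + 1) 0.87), Trh (0.82) and Cpn1 (0.81). Among the genes most like Wnt3 were Fgf5 (0.82) and Eras (0.81). Wnt6 was most like Foxe1 (0.78), and Axin2 was most like Rgma (0.86), Arvcf (0.77) and Pdgfa (0.77). Lef1 was most like Fndc3c1 (0.81), Mest (0.73) and Syne2 (0.72), and Dkk1 was most like Dlg5 (0.77), Acsl3 (0.76) and Tpbg (0.75). Wnt5a was most like Spin2c (0.78), Gtf2i (0.77) and Bicd1 (0.77), and among the genes most like Notum were Wnt6 (0.68) and Tfap2c (0.67). Among the members themselves r ran from -0.13 (Sp5 with Lef1) to 0.68 (Wnt6 with Notum), and Wnt3 with Sp5 gave 0.61.

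Within 5 Mb of each member, the median log2 fold change of the tested neighbours in whole cultures lay between -0.25 (73 genes around Wnt6) and 0.21 (67 genes around Sp5). Around Wnt3, 29 of 180 neighbours were higher and 16 lower in DUX-pulsed libraries.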

How the data were processed

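The deposited table held UMI counts, whole numbers per gene and cell with no normalization by the authors. Cell Ranger 2.2.0, STAR and mm10 are named without roles per the submitters' processing notes. A cell's group and replicate were read from the start and end of its column name. Kept were 8876 of 10090 cells, those with 500 genes or more and a mitochondrial share of 10% or less.

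Kept counts were summed per library, in all cells and by class, and tested with edgeR 4.0.16 (quasi-likelihood, TMM, two-sided p, Benjamini-Hochberg over all genes tested, threshold 0.05) for genes with at least 10 counts in 2 libraries and 40 in all. DESeq2 1.42.0 was an alternative. CPM use plain totals, not TMM. Each SE given with an edgeR fold is the absolute log2 fold change divided by the square root of the test's F statistic. Clusters came from scanpy 1.11.5 without 97 WNT genes (2000 variable genes, 30 components, 15 neighbours, Leiden resolution 1). A name needed 4 markers of a list in the 30 leading genes, 3 markers and 50% of the list raised, and low-depth clusters stayed unnamed. Doublets were kept; Scrublet called 27, so removal of the top 5% of scores (444 cells) was an alternative. Positions are GENCODE vM21. The tests were checked on simulated data, with changes placed only in genes above a higher total count than the tests required. Recovery for sparse genes such as Notum was thus not measured. In whole cultures the tests recovered 39.8% of changes of 1 on the log2 scale and 100% of changes of 2. Within classes they recovered from 18.7% (cluster 15) to 70% (cardiomyocyte-like cells) of changes of 1. Changes of about 1 were thus often missed. Named genes were the members, the 2 tested genes with the smallest p in each role, and the 3 genes most alike each member, some of which are not reported here. T, Cdx4 and the genes that lead clusters fall outside this rule. Members and lists were chosen with earlier results of these data known. Splits into single clusters were chosen after seeing the data.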

Additional observations from a re-analysis of the deposited data

Results flagged for a closer look

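The DUX-pulsed difference varied between the 7 classes and clusters for 5 genes, by edgeR's F test of the class-by-group terms with Benjamini-Hochberg adjustment: Lef1 (adjusted p = 2.85e-05), Wnt5a (5.18e-05), Dkk1 (0.0159), Axin2 (0.0411) and Wnt6 (0.0415). Wnt6 was under the count minimum in the classes other than cluster 17, so its value rests on that cluster. For Lef1 the log2 fold change was 2.52 in cardiomyocyte-like cells and 1.73 in cluster 6, where it did not pass (edgeR adjusted p = 0.126). The Lef1 value was between -0.92 and -1.01 in cluster 13, cluster 17 and mesenchyme and fibroblast-like cells, none of which passed within its own class. For Dkk1 the log2 fold change was -2.30 in cluster 13 and 0.68 in cluster 6, where it did not pass. For Axin2 it was 1.52 in cardiomyocyte-like cells and -1.43 in cluster 17, where it did not pass (adjusted p = 0.079). The calls of Dkk1, Axin2 and Wnt6 in the F test were each lost when some single libraries were left out.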

How the results depend on the processing

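Wnt3, Wnt5a, Dkk1 and Sp5 were called in the whole culture under each of 14 alternatives, and Wnt5a and Lef1 in cardiomyocyte-like cells under each of 12. Of 111 alternative values of the 8 genes in the whole culture, 4 lost the call (Wnt6 in 3 and Lef1 in 1) and 6, all of Axin2, gained it, and the others kept their side of the threshold. Other named WNT genes lost calls without control replicate 1 (Fzd1, adjusted p = 0.0721; Axin1, 0.0874; Dvl2, 0.0505) or 2 (Rspo2, 0.0674; Axin1, 0.122; Dvl2, 0.0722). Wnt11 and Fzd2 each lost the call in 1 of 14 alternatives. The count of WNT list genes called was 38, and 16 under the stricter cell filter, which kept 1320 and 694 DUX-pulsed cells and 644 and 523 control cells. Leaving out 1 library gave 24 to 39 of the list, with 26 and 24 without control replicates 1 and 2. Over all genes 4306 were called, against 2042 under the stricter filter and 2708 and 2134 without control replicates 1 and 2.

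Of the member and class pairs, 7 were called, with 14 under no filter on low counts, 4 under the stricter cell filter, 4 at 5000 UMIs per cell, and 5 to 10 with 1 library left out. The difference between classes passed for 5 genes, with 2 under the stricter cell filter, 3 at 5000 UMIs and 2 to 4 with 1 library left out; Wnt5a and Lef1 passed in each of 10. Lef1 in cluster 6, at 1.73 and not called, reversed to -2.38 (edgeR adjusted p = 0.0439) in a finer cluster, chosen after seeing the data, that also took in 1 control cell of cluster 15, which held all 18 Lef1 UMIs of control replicate 2 there. The highest class was the same for 4 of 8 genes by the thinned share of cells. At fixed class shares 2 genes were higher in DUX-pulsed libraries, and 4 under the stricter cell filter and 4 without low-depth clusters 15 and 16. Leaving out 1 library gave 2 to 3. Wnt6 there moved to -2.11 without the top doublet scores, which left cluster 17 out. The cause of the other changes was not tested. The stricter cell filter was not run within clusters 15, 16, 17 and 6, nor 5000 UMIs within clusters 15 and 16, for lack of cells.

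With the replicate number as a replicate block, 12 pairs and 55 list genes were called, and 7184 genes in all, against 4306 without it. The labels give no shared batch, and same-numbered differences correlated at r = 0.466 over 16140 genes. Depth limits Notum, with 20 to 51 UMIs per library, and Wnt3 in DUX-pulsed libraries, with 39 and 13.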
